A study of Mus musculus with 4 samples.

Results

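The genes of the proteasome's subunits were measured by bulk RNA sequencing in RPP631, a line of mouse cells from small cell lung cancer (SCLC). They are the protein-coding genes whose symbol starts with Psma, Psmb, Psmc, Psmd or Psme and a digit, with Psmb8 and Psmb9 left out. This rule uses names alone and took 43 of the 54232 genes in the table. One group was treated with DMSO and the other with 100 nM YKL, both for 48 h, and each held 2 libraries. The series title speaks of treatment with a CDK7 inhibitor. The labels give no genotype or clone for the line, and separate cultures are not stated for the replicates, so each test weighs a difference against a spread that may be technical. CDK7 phosphorylates RNA polymerase II at promoters and activates kinases of the cell cycle.

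The proteasome degrades proteins tagged with ubiquitin. Its 20S core is a barrel of stacked rings, with outer alpha rings that gate the entrance and inner beta rings that carry the protease sites. The 19S regulatory particle sits on the barrel's ends: a ring of ATPases unfolds the substrate, and non-ATPase subunits bind ubiquitin, remove it and hold the particle together. Activators of the PA28 and PA200 families can bind the core in place of the 19S particle. When proteasome activity is short, the transcription factor NFE2L1 raises the transcription of subunit genes together, through antioxidant response elements in their promoters.

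The members were sorted by role into 8 genes of the 20S alpha ring, 9 of the 20S beta ring, 6 ATPases and 11 non-ATPase subunits of the 19S particle. A further 3 Psmd genes (Psmd5, Psmd9 and Psmd10) encode chaperones that assemble the ATPase ring and leave the finished particle, and 5 genes encode activators. The last gene, Psmc3ip, matches the rule by its symbol only: it encodes HOP2, a protein of homologous recombination named after its binding to PSMC3.

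Libraries held 29817387 to 34189709 counts assigned to genes, and a gene was tested when it passed a filter on low counts (16749 genes). Levels are CPM, counts scaled to the library's total after TMM correction, and fold changes are log2 values of YKL over DMSO from edgeR. This scaling centres the fold changes, so a shift common to most transcripts would not show. Genes varied between replicates by a common biological coefficient of variation of 25%. The DMSO libraries differed more from each other than the YKL libraries did, with a chi-square per degree of freedom of 86.6 against 37.1. Of the markers of neuroendocrine SCLC, Chga was at 537 to 759 CPM and Uchl1 at 422 to 551 CPM. Summed markers of leukocytes, endothelium and lung epithelium were at 0.869 to 7.83 CPM, and those of fibroblasts at 12.7 to 44.7 CPM, most of it Pdgfra. The T cell marker Cd3e was at 0 in every library.

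Nearly all subunits of the complete proteasome were well expressed. Of the 43 members 41 passed the filter. Psma8, the germ cell form of an alpha subunit, had no count in any library, which allows at most 0.0877 to 0.101 CPM per library (3 counts, counting error only). Psmb11, the beta subunit of the thymic cortex, had 1 count in DMSO replicate 2 and none elsewhere. Psme2b, a copy of the PA28 beta gene, passed the filter with 13 to 16 counts per library. Its reads could come from Psme2, as the counting of reads shared by such copies is not given in the sources used here.

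Levels of different genes were compared per kilobase (kb) of exon, using the merged exon length in the count table. Among the 31 constitutive subunits of the core and the 19S particle, the median in DMSO was 59.2 CPM per kb. The highest were the alpha subunit Psma6 at 147 ± 19.4 CPM per kb (mean ± SD, n = 2), the beta subunit Psmb2 at 143 ± 10.5, the ATPase Psmc5 at 142 ± 32.7 and Psmb6, the caspase-like protease subunit, at 135 ± 29.8. These neighbours overlapped within their spread. The lowest were the alpha subunit Psma3 at 15.3 ± 2.64 and the lid subunit Psmd11 at 21.3 ± 0.902 CPM per kb. Subunits that occur in equal number in the complex thus differed by up to 9.65-fold in CPM per kb. The merged length counts exons of every isoform. With the length of the principal transcript in GENCODE M21, the longest where several shared the best rank, the difference was 15.2-fold. Psma3 was again lowest, with a principal transcript of 2846 bases, and Psmb6 highest, with 798 bases.

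The ATPases ran from Psmc2 at 37.8 ± 14.4 CPM per kb to Psmc5, a range of 3.75-fold, which was 1.92-fold by principal transcript length. The order within a class therefore depends on the transcript taken. The beta subunit Psmb10, which replaces Psmb7 in the interferon-induced immunoproteasome, stood at 6.76 ± 1.01 CPM per kb, against 44.4 ± 9.81 for Psmb7. The assembly chaperones Psmd5, Psmd9 and Psmd10 were at 9.96, 9.58 and 25.0 CPM per kb, all under the median of the subunits.

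**Figure D1:**
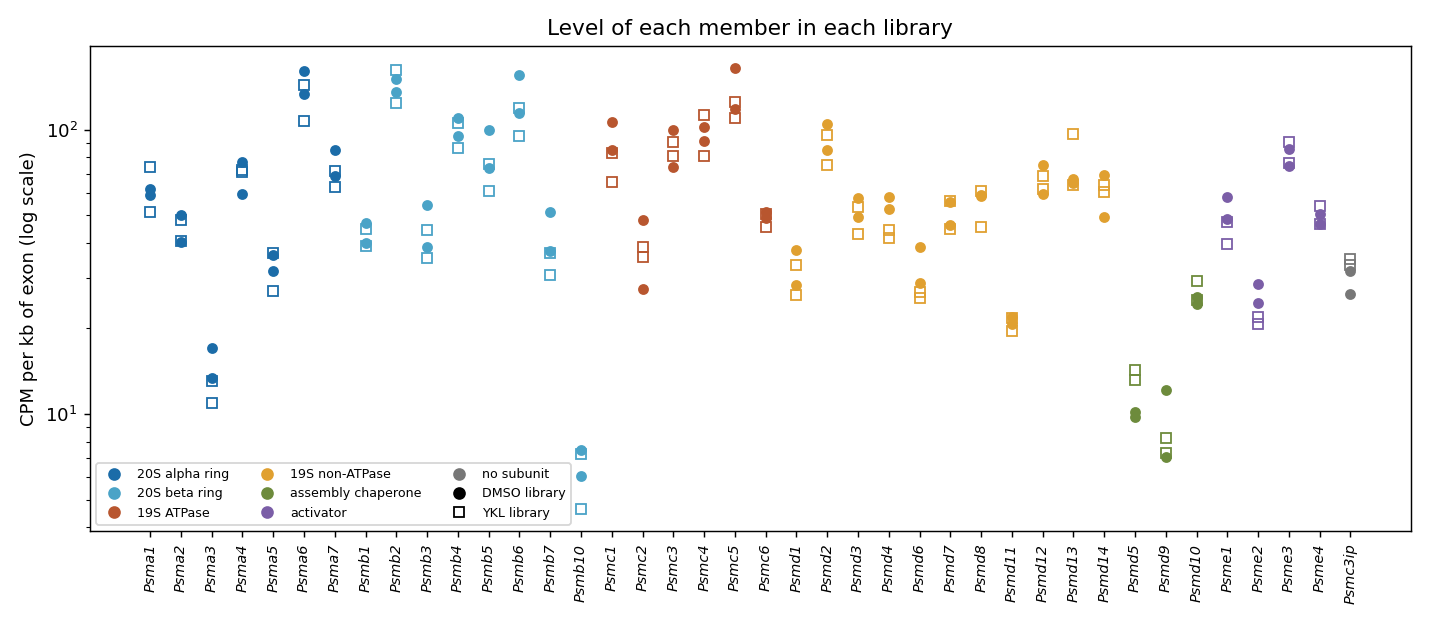
Level of each member in each library, as CPM per kb of exon on a log axis, with filled circles for the 2 DMSO and open squares for the 2 YKL libraries (Psma8, Psmb11 and Psme2b are left out). Psma6, Psmb2, Psmc5 and Psmb6 are highest, Psmb10 is lowest, and the symbols of both groups mix for most genes.

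No proteasome gene was called as different between YKL and DMSO. Of 41 tested members, edgeR's quasi-likelihood test called 0 higher and 0 lower at a Benjamini-Hochberg adjusted p under 0.05, while 3.54% of all genes tested were called (2.1% higher and 1.44% lower). DESeq2 called 0 members and 9.55% of all genes. At an unadjusted p under 0.05 edgeR had 1 member, Psmd5 (2.44% of the members, against 21.2% of all genes tested). The YKL and DMSO libraries did not overlap in 9 members, 2 higher and 7 lower in YKL, which is 22% of the members against 52.3% of all genes tested (27% higher and 25.3% lower). Log2 fold changes of the members had a median of -0.09, against -0.00014 for all genes, and 32 lay below 0 (27 with upper quartile scaling).

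The intervals bounded most of these values, given the spread between replicates, which may be technical. In 40 of the 41 members the whole 95% interval of the log2 fold change lay between -1 and 1, that is, within a 2-fold change either way. The same held for 7731 of the 16749 genes tested. The exception was Psme2b (-1.47 to 1.25), with its few counts. The standard errors of the members ran from 0.18 to 0.61 around a median of 0.20. Changes well under 2-fold were therefore not detectable gene by gene.

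**Figure D2:**
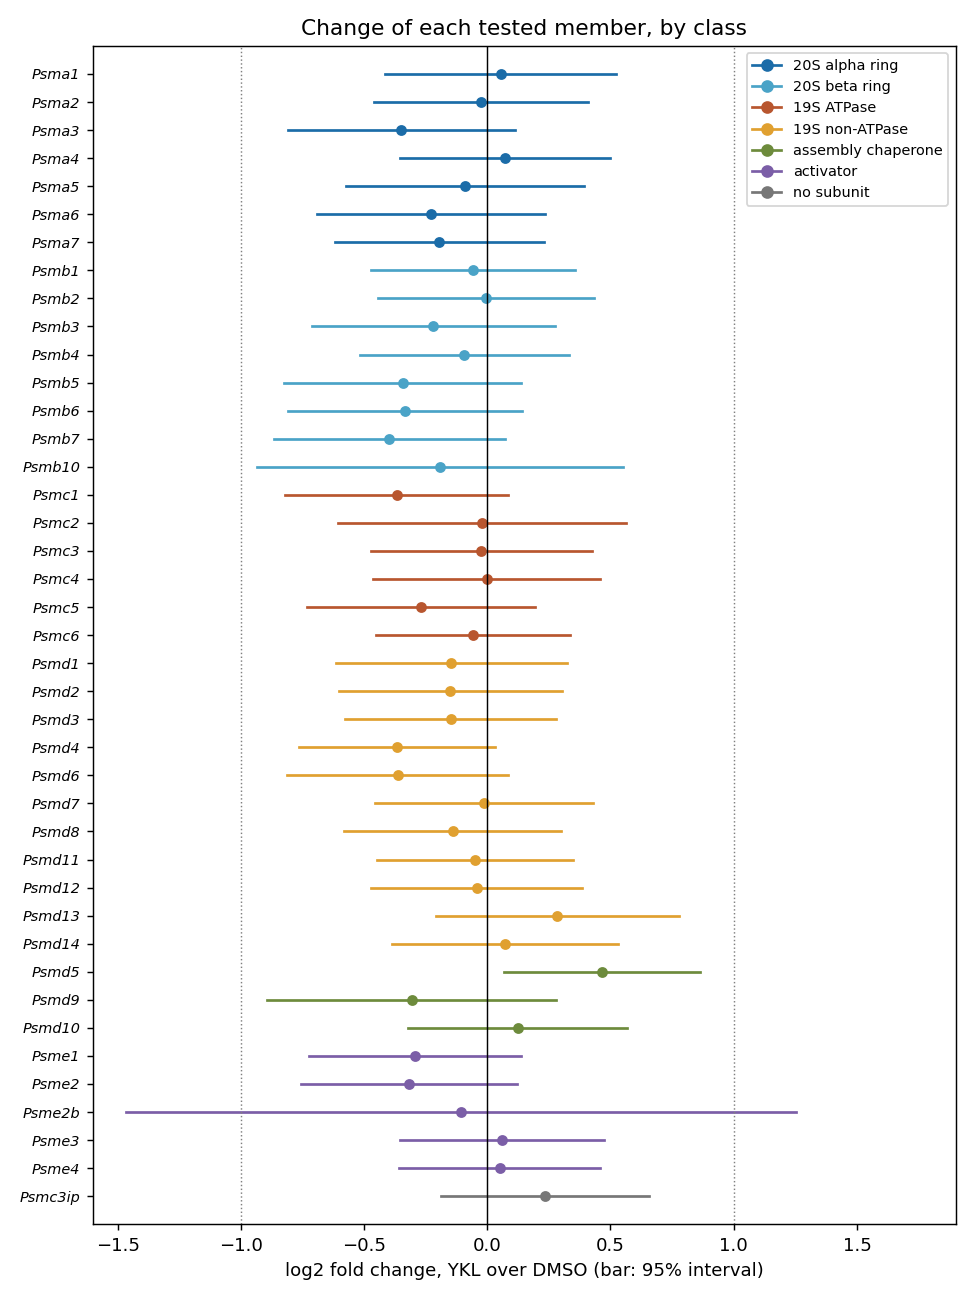
Log2 fold change of YKL over DMSO for the 41 tested members, coloured by class, with 95% intervals as bars and a 2-fold change either way as dotted lines. Every interval but that of Psmd5 crosses 0, and all but that of Psme2b stay between the dotted lines.

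In the 20S alpha ring 7 genes were tested, with log2 fold changes of -0.35 to 0.07 and a median of -0.09. Below 0 were 5 of the 7, and 3 without DMSO replicate 1 or without YKL replicate 1. Psma3 (ENSMUSG00000060073, chromosome 12, 70974621 to 70996347, mm10) had the lowest value and the smallest p of the ring. Its level was 66.7 and 52.2 CPM in DMSO replicates 1 and 2, and 42.6 and 50.7 CPM in YKL replicates 1 and 2 (-0.35 ± 0.21, standard error, adjusted p = 0.369). Both YKL libraries were below both DMSO libraries, by a margin at its narrowest of 52.2 to 50.7, and the value was -0.55 to -0.16 with 1 library left out, nearest to 0 without DMSO replicate 1. Psma4 had the highest value of the ring, with 182 and 141 CPM in DMSO and 168 and 171 CPM in YKL (0.07 ± 0.19). The YKL libraries of Psma4 lay between those of DMSO. Psma6, the most abundant per kb, had 199 and 165 CPM in DMSO and 132 and 178 CPM in YKL (-0.23 ± 0.21), a value of -0.03 without YKL replicate 1. Psma1, Psma2, Psma5 and Psma7 had log2 fold changes of 0.05, -0.02, -0.09 and -0.19, and groups overlapped in every gene of the ring tested but Psma3. Psma4 and Psma5 share 4.81% and 4.54% of their exon bases with genes on the other strand, and the strand setting of the counting is not given.

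In the 20S beta ring all 8 tested genes had values below 0, from -0.40 to -0.0033, with a median of -0.21. This count rests on single libraries: it was 4 of 8 without DMSO replicate 1 and 4 of 8 without YKL replicate 1. With upper quartile or total count scaling, and among protein-coding genes alone, Psmb2 was just above 0. The genes of the constitutive protease sites, Psmb5, Psmb6 and Psmb7, stood at the low end. Psmb10, with the inducible trypsin-like site, was at -0.19, and Psmb3, without a protease site, at -0.22. Psmb7, which carries the trypsin-like site, had 176 and 128 CPM in DMSO and 105 and 125 CPM in YKL (chromosome 2, 38588036 to 38644087, log2 fold change -0.40 ± 0.21, adjusted p = 0.314). Its groups were separate, though DMSO replicate 2 and YKL replicate 2 differed little, and without DMSO replicate 1 the value was -0.15. Psmb5, which carries the chymotrypsin-like site that bortezomib blocks, had 89.6 and 65.9 CPM in DMSO and 54.7 and 67.8 CPM in YKL (-0.34 ± 0.22, adjusted p = 0.401). Psmb6, with the caspase-like site, had 292 and 214 CPM in DMSO and 178 and 223 CPM in YKL (-0.33 ± 0.21, adjusted p = 0.409). In both genes YKL replicate 2 was above DMSO replicate 2, and without DMSO replicate 1 their values were -0.10 and -0.088.

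The constitutive beta subunits without a protease site, Psmb1, Psmb2, Psmb3 and Psmb4, had log2 fold changes of -0.06, -0.0033, -0.22 and -0.09. Psmb2, the most abundant of the ring per kb, had 181 and 163 CPM in DMSO and 149 and 195 CPM in YKL, with overlapping groups. The median of these 4 was -0.08, against -0.34 for Psmb5, Psmb6 and Psmb7. The mean log2 CPM of Psmb5, Psmb6 and Psmb7 minus that of these other 4 was -0.11 and -0.29 for DMSO, and -0.45 and -0.46 for YKL. The groups were thus separate on this contrast within the ring, which leaves out Psmb10. This split by role describes 7 genes, was made with their values known and was not tested. Psmb7 shares 11.8% of its exon bases with Nek6 on the other strand, and Psmb5 12.1% with the microRNA gene Mir686 on its own strand.

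The promoters were searched for the core of the antioxidant response element, TGACNNNGC, on both strands, since this is the element through which NFE2L1 is known to act on subunit genes. RefSeq promoters (GRCm38.p6, 250 bases before to 50 bases after the start) were matched for 36 of the 43 members, all but Psma8, Psmb1, Psmb2, Psmb7, Psmc3, Psmd3 and Psmd7. The motif was found in 6 of them (16.7%), against 14% of all 27025 genes with a promoter in the table. The matches with 11 bases of flank, or up to the window's edge, are shown because Psmb5 and Psmb6, which have low values above, both hold one. The capitals mark the match, and each window is written 5′ to 3′ on the strand of its gene.
Psmb5: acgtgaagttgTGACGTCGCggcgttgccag
Psmb6: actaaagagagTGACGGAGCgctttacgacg
Psmd9: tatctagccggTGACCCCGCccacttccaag
Psmc6: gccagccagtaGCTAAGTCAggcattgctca
Psmd12: tctGCTGTGTCAcatttgccccc
Psme4: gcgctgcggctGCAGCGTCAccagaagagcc

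The windows of Psmb5 (chr14:54618023-54618053, minus strand), Psmb6 (chr11:70525337-70525367, plus strand) and Psmd9 (chr5:123228148-123228178, plus strand) read the motif as written, from 47, 9 and 31 bases before RefSeq's start of transcription. Those of Psmc6 (chr14:45329586-45329616), Psmd12 (chr11:107479278-107479300) and Psme4 (chr11:30771757-30771787), all on the plus strand, hold its reverse complement. In the order Psmb5, Psmb6, Psmd9, Psmc6, Psmd12 and Psme4, the log2 fold changes were -0.34, -0.33, -0.31, -0.06, -0.04 and 0.05. Those with the motif as written were the lower 3, a split that was not tested. It did not hold without DMSO replicate 1, where Psmd9 was at 0.138, above Psmc6 (-0.017) and Psme4 (0.109) and below Psmd12 (0.141). The median of all 6 genes was -0.18, against -0.11 for the 29 tested members whose promoter held none. The CCAAT box was found in 14 of the 36 members (38.9%, against 41.1% of all genes), and the palindrome bound by nuclear respiratory factor 1 in 1 of them, Psma2 (2.78%, against 1.07%). Such matches are letters in a window and do not show binding.

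All 6 ATPases of the 19S particle had values below 0, from -0.37 to -0.0024, with a median of -0.04. Without DMSO replicate 1, and likewise without YKL replicate 1, 3 of the 6 were below 0. That of Psmc4 (221 and 197 CPM in DMSO, 174 and 243 CPM in YKL) turned to the other side of 0 with upper quartile or total count scaling. Psmc1 (Rpt2), whose tail opens the gate of the core, had 206 and 164 CPM in DMSO and 127 and 160 CPM in YKL (chromosome 12, 100110154 to 100123405, -0.37 ± 0.20, adjusted p = 0.335). Its groups were separate by a narrow margin, and its value was -0.55 to -0.19 with 1 library left out, nearest to 0 without DMSO replicate 1. Psmc5 (Rpt6) had 230 and 165 CPM in DMSO and 153 and 174 CPM in YKL (-0.27 ± 0.21, adjusted p = 0.502), with YKL replicate 2 above DMSO replicate 2, and without DMSO replicate 1 the value was -0.0094. The remaining ATPases Psmc2, Psmc3, Psmc4 and Psmc6 had log2 fold changes of -0.02, -0.02, -0.0024 and -0.06. The DMSO libraries of Psmc2 were far apart, at 241 and 139 CPM, and its YKL libraries at 195 and 179 CPM lay between them.

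Of the 11 non-ATPase genes 9 had values below 0, the class ran from -0.37 to 0.28, and its median was -0.14. Without DMSO replicate 1 only 5 of the 11 were below 0, and without YKL replicate 1 only 2, Psmd4 and Psmd6. Psmd4 (Rpn10), a ubiquitin receptor, had 163 and 148 CPM in DMSO and 117 and 125 CPM in YKL (chromosome 3, 95032694 to 95042614, -0.37 ± 0.18, adjusted p = 0.272). Its YKL libraries were below both DMSO libraries, and its value stayed between -0.47 and -0.29 in the 4 fits that leave out 1 library. Psmd6 (Rpn7), a lid subunit, had 108 and 80.8 CPM in DMSO and 71.4 and 75.5 CPM in YKL (-0.36 ± 0.20, adjusted p = 0.337), again with separate groups. Psmd13 (Rpn9) had the highest value of the class at 0.28 ± 0.22 (adjusted p = 0.504). It rests on YKL replicate 2, at 327 CPM, as the other libraries had 220, 226 and 215 CPM, and without that library the value was -0.05.

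The large scaffold subunits Psmd1 (Rpn2) and Psmd2 (Rpn1) had log2 fold changes of -0.15 each, with overlapping groups. Psmd2 was the most abundant of the class per kb, with 424 and 342 CPM in DMSO and 304 and 387 CPM in YKL. Psmd14 (Rpn11), the deubiquitinase that cuts ubiquitin chains from the substrate, had 195 and 139 CPM in DMSO and 171 and 180 CPM in YKL (0.07 ± 0.20). Its partner Psmd7 (Rpn8) had -0.01 ± 0.20. The lid subunits Psmd3, Psmd8, Psmd11 and Psmd12 had values of -0.15, -0.14, -0.05 and -0.04, with overlapping groups. Psmd13 shares 10.1% of its exon bases with Sirt3 on the other strand.

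The member with the smallest p was an assembly chaperone. Psmd5 (ENSMUSG00000026869, chromosome 2, 34849734 to 34874968) had 73.2 and 70.8 CPM in DMSO and 95.2 and 104 CPM in YKL. The replicates of each group lay close together and the groups were well apart. The log2 fold change was 0.46 ± 0.18, or 1.38-fold, with a 95% interval of 0.07 to 0.86 and an adjusted p of 0.175 by edgeR's quasi-likelihood test. The value was 0.40 to 0.53 in the 4 fits that leave out 1 library, and no alternative called it (adjusted p 0.129 to 0.603). In the authors' deposited table, Psmd5 has a log2 fold change of 0.42 and an adjusted p of 0.0161. Of the other chaperones, Psmd10 (gankyrin) was also above 0, with 37.9 and 35.7 CPM in DMSO and 37.0 and 43.1 CPM in YKL (0.12 ± 0.20). Psmd9 was below 0, with 87.8 and 51.1 CPM in DMSO and 59.6 and 52.6 CPM in YKL (-0.31 ± 0.26). For Psmd9 only DMSO replicate 1 stood out, and without it the value was 0.14. Its exon bases overlap those of the noncoding gene Gm26745 on the other strand by 25.5%.

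Among the activators, Psme1 and Psme2, which encode the alpha and beta subunits of PA28 and lie close together on chromosome 14 (55578123 to 55581529 and 55587441 to 55591113), had similar values. Psme1 had 129 and 107 CPM in DMSO and 104 and 87.7 CPM in YKL (-0.29 ± 0.19, adjusted p = 0.423). Psme2 had 50.5 and 43.2 CPM in DMSO and 38.6 and 36.7 CPM in YKL (-0.32 ± 0.20, adjusted p = 0.392). The groups were separate in both genes. Psme3, the nuclear PA28 gamma, had 252 and 220 CPM in DMSO and 225 and 266 CPM in YKL (0.06 ± 0.19), and Psme4, which encodes PA200, had 423 and 391 CPM in DMSO and 391 and 451 CPM in YKL (0.05 ± 0.18). The groups of Psme3 and Psme4 overlapped, as did those of Psme2b (-0.11 ± 0.61).

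Psme1 and Psme2 belong with Psmb8, Psmb9 and Psmb10 to the part of the system that interferon induces. Psmb10 had 10.3 and 12.8 CPM in DMSO and 7.90 and 12.3 CPM in YKL (-0.19 ± 0.33). Of the subunits left out by the rule, Psmb9 had 11.8 and 14.4 CPM in DMSO and 23.8 and 19.2 CPM in YKL (0.71 ± 0.27, adjusted p = 0.165), and Psmb8 had a log2 fold change of 0.18 ± 0.23. The estimates of the inducible genes thus did not share a sign: Psmb9 and Psmb8 were above 0, Psmb10, Psme1 and Psme2 below, and edgeR called none. Those of Psmb8 and Psmb10 were nearer to 0 than their standard errors, and without YKL replicate 1 Psmb10 was at 0.096. In the authors' deposited table Psmb9 has a log2 fold change of 0.61 and an adjusted p of 0.00802. Psmb9 shares 5.79% of its exon bases with Tap1 on the other strand.

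Psmc3ip, which is no proteasome subunit, had 57.9 and 48.1 CPM in DMSO and 60.7 and 64.0 CPM in YKL (0.23 ± 0.19, adjusted p = 0.527). It shares 21.2% of its exon bases with Mlx on the other strand. Without it the median of the remaining 40 tested members was -0.10.

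The members differed together between the replicates of a group. DMSO replicate 1 was above DMSO replicate 2 in 38 of 41 members, by a median log2 difference of 0.26, and YKL replicate 2 was above YKL replicate 1 in 36 of 41, by a median of 0.24. Over all genes with a count in every library these medians were -0.0009 and 0.004, and over the 5629 genes between 44.9 and 407 CPM in DMSO, the range of the constitutive subunits and Psme4, they were 0.11 and 0.07. Both held at once in 33 members (80.5%), against 24.5% of all genes and 37.9% of those in that CPM range. DMSO replicate 1 was the highest library in 28 members (68.3%, against 27.3% of all genes). YKL replicate 1 was the lowest in 27 (65.9%, against 23.0% of all genes). In 18 members (43.9%) both were so, against 10.6% of all genes and 16.6% of those in that CPM range. In the beta ring YKL replicate 1 was the lowest library for all 8 tested genes, and in the non-ATPase class for 9 of 11. Of the 5 activators, YKL replicate 2 was above YKL replicate 1 in 2, Psme3 and Psme4. It was below in Psme1, Psme2 and Psme2b, the last with 13 counts in each YKL library.

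**Figure D3:**
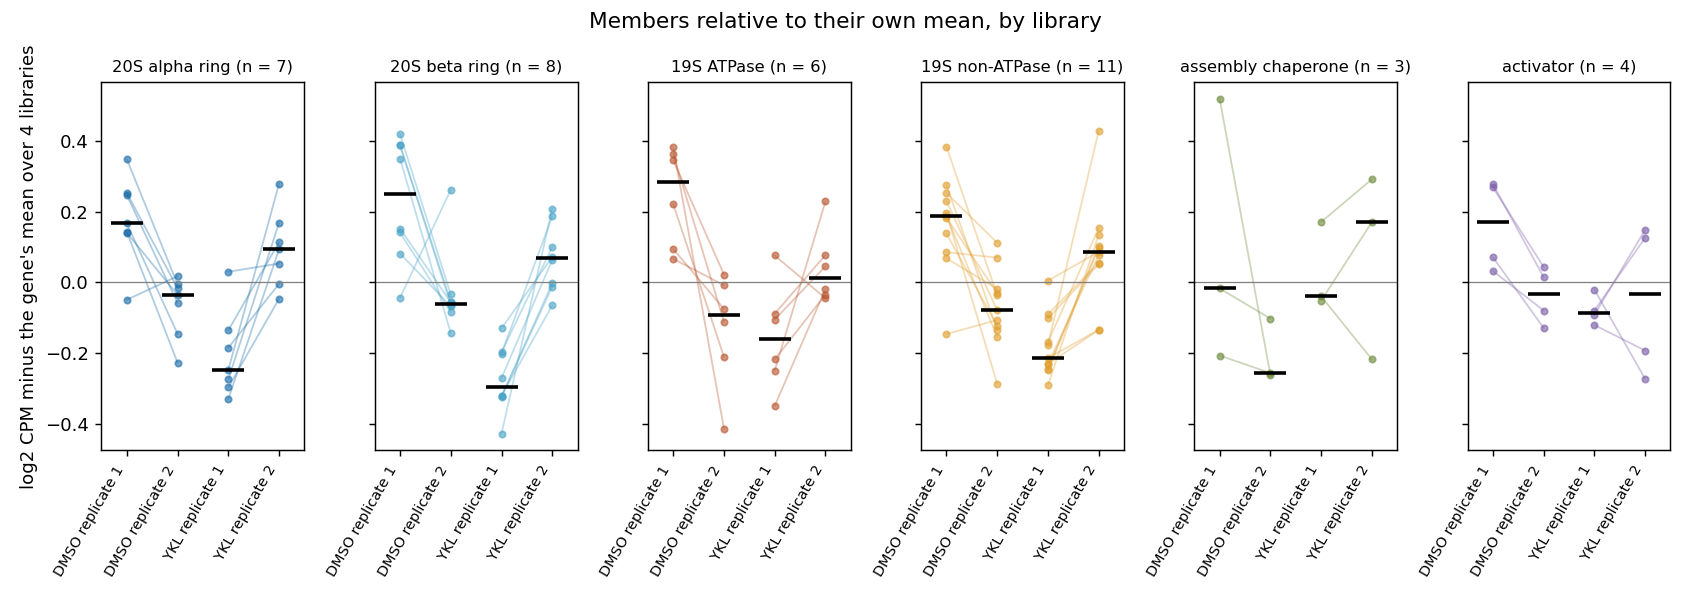
Log2 CPM of each tested member minus its own mean over the 4 libraries, by class and library (Psme2b and Psmc3ip left out); lines join the replicates of a group and black bars are class medians. In the core and 19S classes DMSO replicate 1 is high, YKL replicate 1 low, and the other libraries lie in between.

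The members together took 0.702% and 0.602% of all assigned counts in DMSO replicates 1 and 2, and 0.579% and 0.656% in YKL replicates 1 and 2. The order of these shares, highest in DMSO replicate 1, then YKL replicate 2, DMSO replicate 2 and YKL replicate 1, is also the order of the libraries' total counts (34189709, 32956564, 31082753 and 29817387). The part of depth in this pattern was not tested. The share of mitochondrially encoded transcripts was 1.01% and 1.14% for DMSO, and 1.25% and 1.78% for YKL, an order that differs from that of the members. In bulk RNA fewer cells with a transcript and less of it per cell cannot be told apart.

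Because of this pattern the small negative median rested on single libraries. Leaving out DMSO replicate 1 gave a median log2 fold change of 0.02, and leaving out YKL replicate 1 gave 0.03. Leaving out DMSO replicate 2 or YKL replicate 2 gave -0.24 in each case. Without DMSO replicate 2, edgeR called 2 members lower, Psmb7 (-0.64, adjusted p = 0.0428) and Psmd9 (-0.68, adjusted p = 0.0351), in a fit that called 14% of all genes and 6.06% as lower. No member was called in the fits that left out DMSO replicate 1 (7.61% of all genes called), YKL replicate 1 (0.606%) or YKL replicate 2 (0.402%).

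Summed over a class, per kb of exon, the groups overlapped for every class. The beta ring held 675 and 541 CPM per kb in the DMSO replicates against 475 and 595 in the YKL replicates, a ratio of means of 0.88. For the alpha ring the sums were 485 and 409 against 371 and 460 (0.929), for the ATPases 572 and 445 against 421 and 496 (0.902), and for the non-ATPase subunits 642 and 545 against 507 and 622 (0.951). The activators summed to 223 and 195 against 193 and 205 (0.952), and the assembly chaperones to 48.0 and 41.1 against 46.6 and 50.96 (1.09). DMSO replicate 1 was highest in every class but the chaperones.

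The 19S sum divided by the 20S sum was 1.05 and 1.04 for DMSO, and 1.10 and 1.06 for YKL. The beta sum divided by the alpha sum was 1.39 and 1.32 for DMSO, and 1.28 and 1.30 for YKL. In these ratios the groups were separate, also by principal transcript length (0.899 and 0.902 against 0.952 and 0.925 for the 19S over the 20S sum). The ATPase sum divided by the alpha sum was 1.18 and 1.09 for DMSO, and 1.13 and 1.08 for YKL, and the activator sum divided by the 20S sum was 0.193 and 0.205 for DMSO, and 0.228 and 0.194 for YKL. In these other 2 of the 4 ratios formed the groups overlapped. The steps are small, rest on sums over genes and were not tested. Both separate ratios contain the beta sum, and the groups were separate in 52.3% of all genes tested.

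**Figure D4:**
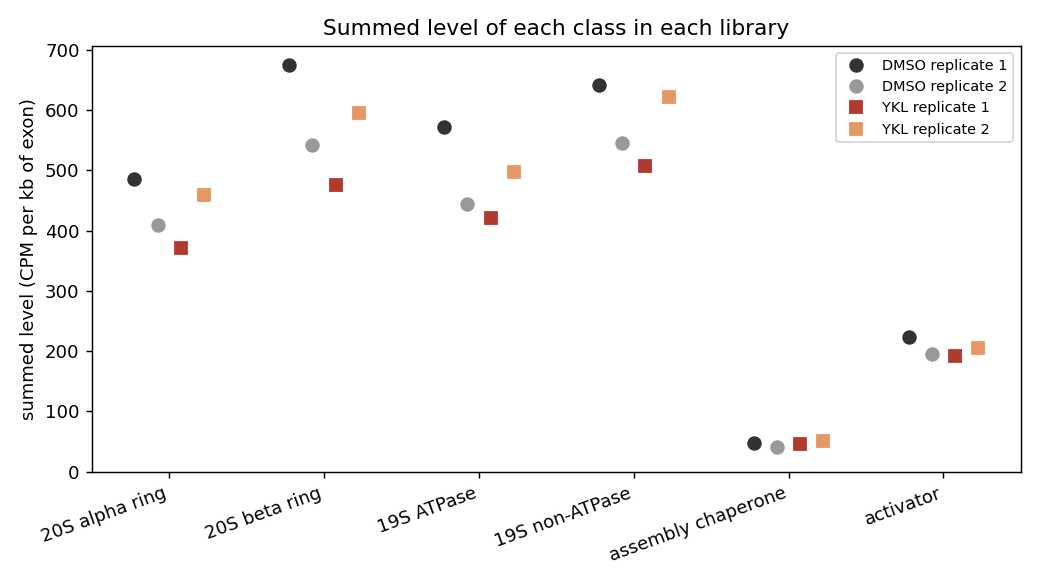
Summed level of the genes of each class in each library, as CPM per kb of exon on an axis from 0, with circles for the DMSO and squares for the YKL libraries. In the core and 19S classes DMSO replicate 1 is highest and YKL replicate 1 lowest, and the groups overlap.

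Other genes of the pathway were looked at through a list of 37 genes, of which 36 were found and tested. They encode further 19S components, assembly factors, ubiquitin and its activating enzymes, shuttle proteins and regulators. None was called by edgeR, against 3.54% of all genes tested. An unadjusted p under 0.05 was found for 7 (2 higher and 5 lower), or 19.4%, against 21.2% of all genes tested, and the median log2 fold change was -0.11. The smallest p were those of Akirin2 and Sqstm1. Akirin2, which brings proteasomes into the nucleus, had 125 and 105 CPM in DMSO and 66.5 and 71.1 CPM in YKL (-0.74 ± 0.19, adjusted p = 0.0599). Sqstm1 (p62), a receptor that carries ubiquitinated cargo to autophagy, had 484 and 456 CPM in DMSO and 245 and 310 CPM in YKL (-0.76 ± 0.19, adjusted p = 0.0619). Both pairs of groups were far apart, and DESeq2 called both genes (adjusted p = 0.00727 and 0.00549) and edgeR did so without the filter (0.00935 and 0.00962) and without DMSO replicate 2 (0.00233 and 0.00623). Sqstm1 was also called by edgeR with a filter of 5 CPM (adjusted p = 0.0495) and without DMSO replicate 1 (0.049). Without YKL replicate 1 the adjusted p of Akirin2 and Sqstm1 was 0.341 and 0.419, the highest over the alternatives. Sqstm1 shares 17.3% of its exon bases with Mrnip on the other strand.

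Of the 19S components outside the Psm symbols, named after their values were seen, the deubiquitinase Uchl5 had 82.8 and 59.6 CPM in DMSO and 119 and 116 CPM in YKL (0.73 ± 0.21, adjusted p = 0.0856), whereas Usp14, Adrm1 and Sem1 had log2 fold changes of -0.22, -0.13 and -0.16. The core assembly factors Pomp, Psmg1, Psmg2, Psmg3 and Psmg4 had -0.02, -0.41, 0.52, -0.37 and -0.29, of which only that of Psmg2 was above 0. The regulator Nfe2l1 had 165 and 140 CPM in DMSO and 138 and 142 CPM in YKL (-0.12 ± 0.18), with overlapping groups, and Ddi2, the protease that activates its product, had -0.07 ± 0.22.

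The authors' deposited table holds 41 of the members, and 1 of them, Psmd5, has an adjusted p under 0.05 there, against 27.8% of its 15936 genes. In the authors' deposited table the members' median log2 fold change is -0.11, and the sign of all 41 is that of the edgeR fit, which was made from the same counts.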

How the data were processed

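The deposited table of raw counts per gene and library was made by the authors with STAR 2.5.2b on mm10 and featureCounts, per the submitters' processing notes; the strand setting and annotation release are not given in the sources used here. The authors' deposited DESeq2 table holds a mean normalized signal, log2 fold changes with errors, a test score, p-values and adjusted p-values, and was used only for comparison. Biotypes and symbols came from the deposited gene table, exon overlaps from the coordinates of the count table. The lists and members were chosen with earlier results of these data known.

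Counts were tested over all genes with edgeR 4.0.16 in R 4.3.3: filterByExpr (minimum count 10, total 15), TMM scaling, robust quasi-likelihood test with 2 residual degrees of freedom, Benjamini-Hochberg adjustment. Standard errors are the absolute log2 fold change over the square root of F, and 95% intervals use the moderated degrees of freedom. The procedure was also run on simulated counts with changes of 2-fold or more, drawn independently for each gene. Smaller changes and shifts shared within a library were not covered. DESeq2 1.42.0, other scalings and filters, the replicate block and leaving out each library were alternatives. Division by principal transcript length (GENCODE M21) and leaving out Psmc3ip were chosen after seeing the data. Named in full were, per class, the member with the highest level, smallest p, highest and lowest fold change, and the 2 other pathway genes with the smallest p. Further members and genes were named after their values were seen. Levels are mean ± SD of 2 libraries. Figures were drawn with matplotlib.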

Additional observations from a re-analysis of the deposited data

How the results depend on the processing

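The count of proteasome members called higher was 0 in all 14 alternatives run. That of members called lower was 0 in 13 of them and 2 without DMSO replicate 2, and ran from 0 to 2 over the fits that leave out 1 library. The members' median log2 fold change was -0.13 to -0.07 under the other scalings, filters and tests, -0.10 without Psmc3ip, and -0.24 to 0.029 with 1 library left out, where it was above 0 without DMSO replicate 1 (0.018) and without YKL replicate 1 (0.029). With the replicate number as a replicate block the median was -0.10 and 0 members were called. With 2 pairs only, the numbers are not known to pair the libraries; the deviations of same-numbered libraries correlated at 0.15. The block raised all calls from 593 to 1387, among them Akirin2 and Sqstm1 (adjusted p = 0.0287 and 0.0333 by edgeR).

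The highest level per kb of the constitutive subunits over the lowest was 15.2 by principal transcript length, against 9.65, since the lengths differ by gene. Of the named genes, values near 0 changed side. Psmb2 was at 0.0034 among protein-coding genes alone, 0.0025 with total count scaling and 0.019 with upper quartile scaling, and ran from -0.21 to 0.18 with 1 library left out. Psmc4 was at 0.00024 with the filter of 5 CPM, 0.0041 among protein-coding genes alone, 0.0024 with total count scaling and 0.019 with upper quartile scaling, and ran from -0.27 to 0.22. With 1 library left out Psma4 ran from -0.14 to 0.27, Psmd2 from -0.34 to 0.017, Psmd13 from -0.053 to 0.56, Psmd9 from -0.68 to 0.14 and Psme3 from -0.072 to 0.18. The cause of these moves was not tested. Where a group was left with 1 library, that library is assumed to vary like the other group. Calls over all genes ran from 71 to 2453 in those fits. A standard error near 0.20 limits what 2 libraries per group can show for changes well under 2-fold.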
